A study of Mus musculus with 16 samples.

Results

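The Rhox genes are a family of homeobox genes that lie side by side on the mouse X chromosome, and 8 of them, Rhox1, Rhox2a, Rhox4b, Rhox5, Rhox6, Rhox9, Rhox10 and Rhox13, were followed here through mouse embryonic stem cells (mESCs) that differ in their DNA methyltransferases. Each gene was read from every non-control array probe whose RefSeq accession belongs to it. By this rule 6 of the 8 genes have a probe, 1 each, and all 6 passed the filter on dim probes, while Rhox2a and Rhox4b have none. The annotation lists 34 more Rhox genes, and 21154 named genes have a probe on the array.

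RNA was measured on 16 arrays of 3 mESC lines in 2 media. J1 cells are male wild-type mESCs, and the other lines descend from them. TKO cells lack functional Dnmt1, Dnmt3a and Dnmt3b, the DNA methyltransferases. 3B3l cells, spelled 3B3-3l in the sample labels, lack Dnmt3a and Dnmt3b and carry exogenous, constitutively expressed Dnmt3b and Dnmt3l, the latter a cofactor of de novo methylation. Serum medium held 15% FCS and 500 U/ml LIF. The 2i medium was serum-free N2B27 with 1 μM of the MEK inhibitor PD0325901, 3 μM of the GSK3 inhibitor CHIR99021 and 1000 U/ml LIF, and cells were kept in it for 2 weeks. The groups are J1-serum with 4 arrays, J1-2i with 3, TKO-serum with 2, TKO-2i with 3, 3B3l-serum with 2 and 3B3l-2i with 2. J1 cells in serum were grown on inactivated feeder fibroblasts and the other groups without feeders, so feeders change together with the medium in J1, with the line where TKO or 3B3l is compared with J1 in serum, and with every difference of responses from that of J1. These cannot be told apart. Nothing in the labels says whether arrays of a group came from separate cultures, so p-values measure the spread between arrays, which may be technical.

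Rhox genes encode transcription factors that are used mainly in the testis, ovary and placenta. Their cluster is a textbook target of DNA methylation: in the embryo proper it is methylated and silenced after implantation, while the extraembryonic lineages keep several of its genes active. Members close to one another have arisen by repeated duplication, so that the Rhox2, Rhox3 and Rhox4 genes occur as many near-identical copies.

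Promoter windows, from 250 bases before to 50 bases after the annotated start, are shown for 5 of the genes because the lines differ in the enzymes that methylate CG dinucleotides. No methylation was measured on these arrays. They come from RefSeq (GRCm38.p6), are written 5′ to 3′ on the strand of the gene, and carry each CG in capitals. Rhox2a and Rhox4b are included because no probe reads them, Rhox1, Rhox5 and Rhox10 because their signal moved most among the 6 between serum and 2i in J1.
Rhox1 (chrX:37222209-37222508, minus strand): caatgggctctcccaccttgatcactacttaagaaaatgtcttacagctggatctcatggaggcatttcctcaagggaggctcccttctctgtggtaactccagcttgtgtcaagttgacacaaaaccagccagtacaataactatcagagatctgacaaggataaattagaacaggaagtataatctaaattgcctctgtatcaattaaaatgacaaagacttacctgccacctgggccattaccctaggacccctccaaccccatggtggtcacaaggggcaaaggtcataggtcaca
Rhox2a (chrX:37244742-37245041, plus strand): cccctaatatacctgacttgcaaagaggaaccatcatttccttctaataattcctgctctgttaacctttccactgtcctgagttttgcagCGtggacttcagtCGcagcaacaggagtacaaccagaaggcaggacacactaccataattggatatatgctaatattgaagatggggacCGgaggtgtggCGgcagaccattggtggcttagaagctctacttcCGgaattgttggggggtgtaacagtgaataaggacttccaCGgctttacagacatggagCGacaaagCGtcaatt
Rhox4b (chrX:37432244-37432543, plus strand): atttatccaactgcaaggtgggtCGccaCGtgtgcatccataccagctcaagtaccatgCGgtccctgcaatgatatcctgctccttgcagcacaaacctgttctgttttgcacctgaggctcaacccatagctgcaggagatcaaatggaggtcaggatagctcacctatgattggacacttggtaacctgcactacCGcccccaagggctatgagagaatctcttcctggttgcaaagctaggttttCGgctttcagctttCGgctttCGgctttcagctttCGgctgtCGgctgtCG
Rhox5 (chrX:37754358-37754657, plus strand): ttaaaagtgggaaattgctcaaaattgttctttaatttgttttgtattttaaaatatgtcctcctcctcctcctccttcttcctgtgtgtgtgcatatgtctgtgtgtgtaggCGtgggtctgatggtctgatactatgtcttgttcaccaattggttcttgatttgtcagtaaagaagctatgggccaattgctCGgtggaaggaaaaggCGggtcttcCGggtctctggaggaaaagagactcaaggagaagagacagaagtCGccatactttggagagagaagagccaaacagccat
Rhox10 (chrX:38066225-38066524, plus strand): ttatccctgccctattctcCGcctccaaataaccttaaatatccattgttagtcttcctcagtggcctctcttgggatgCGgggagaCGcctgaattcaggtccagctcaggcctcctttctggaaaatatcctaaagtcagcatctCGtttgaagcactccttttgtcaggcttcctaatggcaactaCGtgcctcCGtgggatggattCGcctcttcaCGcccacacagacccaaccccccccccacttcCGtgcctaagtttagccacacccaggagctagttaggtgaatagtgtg

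The windows hold 0 CG in Rhox1, 8 in Rhox2a, 10 in Rhox4b, 5 in Rhox5, 9 in Rhox10 and 5 in Rhox13, the last not shown. The motif searched was the 2 letters CG, which read the same on both strands. Over all 32851 windows of this length in the table the median was 7, and 94.6% held at least 1 CG. In the Rhox4b window several of them lie in short repeats close to its 3′ end. The window of Rhox2a matched that of its paralog Rhox2c at 299 of 300 bases, and the window of Rhox4b matched that of Rhox4a at 264 of 270 aligned bases. No window was given for Rhox6 or Rhox9.

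Signals are given on the log2 scale after subtraction of each array's 75th percentile, so that 0 is the level of that percentile and a step of 1 is a doubling. Between 39.5% and 48.8% of the spots on an array were well above background. The methyltransferase genes were read as a check of the labels, although the files do not say where each probe lies relative to the deleted exons. Dnmt1 averaged 1.79 in J1-serum against -1.69 in TKO-serum, Dnmt3a missed the mark for well above background on all 9 TKO and 3B3l arrays, and Dnmt3b averaged 5.52 in 3B3l-serum against 2.95 in J1-serum. Dnmt1 and Dnmt3b stayed well above background on all 5 TKO arrays, Dnmt3b at -0.36 in TKO-serum and -0.65 in TKO-2i, and Dnmt3l fell by 1.46 in 2i in 3B3l. A difference was called where limma gave an adjusted p of at most 0.05 over all 27113 tested probes together with a change of at least 2-fold. The arrays lie on 3 slides. Slide 3 holds all 4 3B3l arrays and of the other groups only J1-serum replicate 1, so 3B3l and slide cannot be told apart except through that array.

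Markers of other cell types moved with medium and line, and their part in the Rhox results was not tested. The 13 tested of 20 fibroblast markers had a mean log2 signal of 1.14 to 1.37 on the J1-serum arrays, -2.68 to -2.58 in J1-2i, -1.05 to -0.88 in TKO-serum, -2.43 to -2.20 in TKO-2i, -0.18 to -0.04 in 3B3l-serum and -2.20 to -2.12 in 3B3l-2i. The 11 primitive endoderm markers stood at 1.55 to 1.76 in J1-serum, -1.70 to -1.36 in TKO-serum and -1.55 to -1.46 in 3B3l-serum, and at -2.91 or below on every 2i array. The 12 tested of 14 trophoblast markers, of interest because several Rhox genes are placental, stood at -1.71 to -1.36 in J1-serum, -1.87 to -1.55 in TKO-serum, -0.40 in 3B3l-serum and -2.84 to -2.32 in 2i over the 3 lines. On the J1-serum arrays 2 of these 12, Hand1 and Gata3, were not well above background anywhere, while Tfap2c, Gata2, Ascl2, Krt7, Esx1 and Peg10 were on all 4. Cdx2 departed from the mean in 2i, at -0.06 in 3B3l-2i and -1.97 in TKO-2i beside -4.94 in J1-2i. In 2i 2 of the 12 were called higher and 2 lower in 3B3l than in J1, against 7.90% and 6.49% of all genes. The 13 pluripotency markers averaged 4.06 to 4.87 over all arrays. Dppa3 alone of the 13 was not well above background on any array of a group, 3B3l-2i. It averaged -4.09 there, beside 1.43 in J1-2i and 2.07 in 3B3l-serum. In such bulk RNA fewer cells that use a gene and less of its RNA per cell cannot be told apart.

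**Figure D1:**
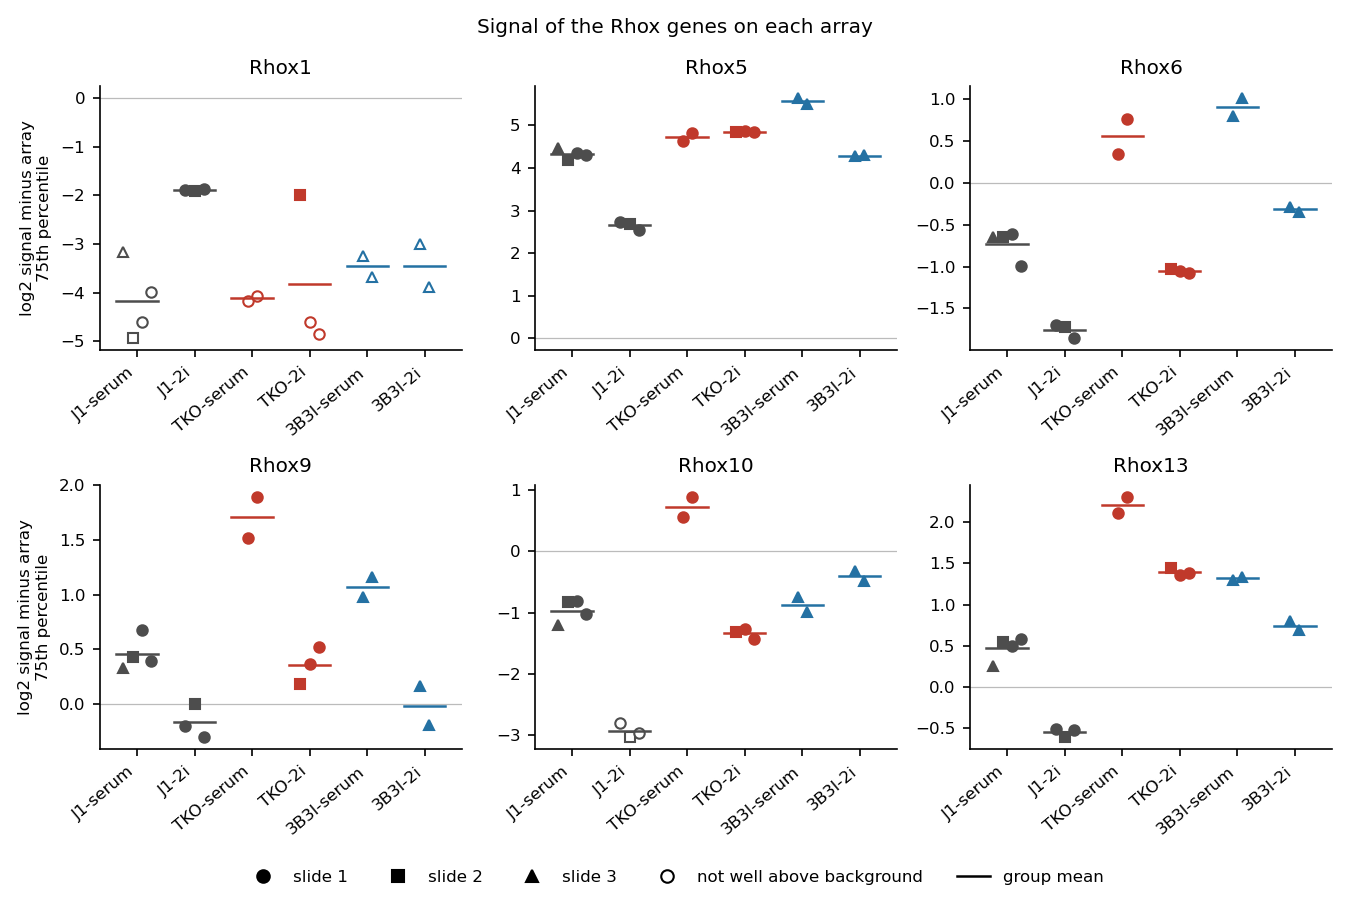
Log2 signal minus the array's 75th percentile (y axis) of the 6 Rhox genes with a probe on each of the 16 arrays, by group (x axis), with the symbol giving the slide, open symbols marking spots not well above background and the line giving the group mean. J1-2i is the lowest group for Rhox5, Rhox6, Rhox9, Rhox10 and Rhox13 and the highest for Rhox1.

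Rhox5, also called Pem, is the founding member of the family, a gene of Sertoli cells, epididymis and extraembryonic tissue. Its signal was well above background on all 16 arrays and fell to its lowest in J1-2i. In J1-serum it read 4.47, 4.18, 4.36 and 4.32 on the 4 arrays, and in J1-2i 2.74, 2.68 and 2.54. All 3 J1-2i arrays lay below all J1-serum arrays, a 3.20-fold fall (log2 difference -1.68 ± 0.09 SE, adjusted p = 9.58e-09). In TKO-serum it read 4.63 and 4.81, and in TKO-2i 4.85, 4.86 and 4.85. The TKO arrays thus hardly moved with the medium, by 0.13 ± 0.11 on the log2 scale (adjusted p = 0.391), and the difference between the TKO and the J1 response was 1.81 ± 0.14 (adjusted p = 1.80e-06). In 3B3l-serum it read 5.65 and 5.51, and in 3B3l-2i 4.28 and 4.30. The 3B3l cells therefore lost 2.45-fold in 2i (adjusted p = 3.88e-06) but from a higher start, and their response differed from that of J1 by 0.39 ± 0.15, which did not pass (adjusted p = 0.0734).

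Between lines, Rhox5 was highest in 3B3l-serum, followed by TKO-2i, TKO-serum, J1-serum, 3B3l-2i and J1-2i. Only J1-serum and 3B3l-2i, neighbours in that order, overlapped between arrays. TKO exceeded J1 by 4.59-fold in 2i (adjusted p = 1.28e-08) but by 1.31-fold in serum, a difference with an adjusted p of 0.00793 that was below the 2-fold limit. 3B3l exceeded J1 in both media, by 2.38-fold in serum (adjusted p = 8.65e-07) and by 3.11-fold in 2i (adjusted p = 3.46e-07). Quantile normalization left the serum difference at 0.96 on the log2 scale, just short of the limit. Within slide 3, where the only J1 array is J1-serum replicate 1, 3B3l-serum lay 1.11 above it.

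Rhox6 and Rhox9 are close relatives that are known from placenta and germ cells. Rhox6 fell in 2i in every line and Rhox9 in TKO and 3B3l, and for both genes J1-2i had the lowest mean. For Rhox6 the J1-serum arrays read -0.65, -0.65, -0.61 and -0.99 and the J1-2i arrays -1.70, -1.72 and -1.85. The TKO-serum arrays read 0.35 and 0.77 and the TKO-2i arrays -1.03, -1.06 and -1.08. The 3B3l-serum arrays read 0.80 and 1.01 and the 3B3l-2i arrays -0.29 and -0.34. No 2 of the 6 groups overlapped for Rhox6, and serum lay above 2i within each line. The fall in 2i was 2.05-fold in J1 (adjusted p = 1.32e-05), 3.06-fold in TKO (adjusted p = 2.34e-06) and 2.34-fold in 3B3l (adjusted p = 8.21e-05). The J1 value stood at the 2-fold limit and dropped below it under 5 other settings and without J1-2i replicate 3 or J1-serum replicate 3, down to 0.86 on the log2 scale.

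For Rhox9 the J1-serum arrays read 0.33, 0.43, 0.68 and 0.40 and the J1-2i arrays -0.20, 0.00 and -0.30. The TKO-serum arrays read 1.52 and 1.89 and the TKO-2i arrays 0.19, 0.37 and 0.52. The 3B3l-serum arrays read 0.98 and 1.16 and the 3B3l-2i arrays 0.16 and -0.19. Serum and 2i arrays did not overlap in any line, while 3B3l-2i overlapped J1-2i and J1-serum overlapped TKO-2i. The fall in 2i was 2.54-fold in TKO (adjusted p = 3.72e-05) and 2.12-fold in 3B3l (adjusted p = 6.47e-04), and in J1 it was 1.54-fold with an adjusted p of 0.00223, below the 2-fold limit. Without 3B3l-2i replicate 2 the 3B3l difference was -0.91 and without 3B3l-serum replicate 2 it was -0.99, both short of the limit, as it was with median scaling at -0.97.

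In serum both of these genes were higher in TKO than in J1, Rhox6 by 2.43-fold (adjusted p = 1.06e-05) and Rhox9 by 2.37-fold (adjusted p = 4.09e-05). In 2i the same contrast was 1.63-fold for Rhox6 (adjusted p = 0.00184) and 1.44-fold for Rhox9 (adjusted p = 0.0229), both below the 2-fold limit. In 3B3l Rhox6 was higher than in J1 by 3.10-fold in serum (adjusted p = 1.13e-06) and 2.72-fold in 2i (adjusted p = 1.14e-05). Rhox9 was higher by 1.53-fold in serum (adjusted p = 0.00666) and by 1.11-fold in 2i (adjusted p = 0.497), neither of them called. Of the 12 trophoblast markers, 3B3l-serum had 6 called higher and 1 lower against J1-serum, where 9.98% and 9.28% of all genes were, and 5 higher and 0 lower against TKO-serum, where 5.28% and 5.41% were.

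Rhox10 supports the establishment of spermatogonial stem cells, and its signal set the 3B3l line apart. In J1-serum it read -1.21, -0.83, -0.81 and -1.03, and in J1-2i -2.81, -3.03 and -2.97, values that were not well above background on any of the 3 arrays. In TKO-serum it read 0.55 and 0.88, and in TKO-2i -1.32, -1.27 and -1.43. In 3B3l-serum it read -0.75 and -0.99, and in 3B3l-2i -0.33 and -0.48. Signal was thus lower in 2i on every J1 and TKO array than on any serum array of the same line, while both 3B3l-2i arrays lay above both 3B3l-serum arrays. Where no array of the dimmer group was well above background, a fold is given as a lower bound against the higher, on each array, of the probe's own signal and the lowest signal well above background. An adjusted p beside such a bound is limma's for the signals as measured, and the bound itself was not tested.

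The fall of Rhox10 in 2i was at least 3.91-fold in J1 (adjusted p = 4.14e-08) and 4.16-fold in TKO (adjusted p = 3.32e-07). The 3B3l difference was 0.46 ± 0.16 on the log2 scale and was not called (adjusted p = 0.0546). It differed from the J1 response by 2.43 ± 0.20 (adjusted p = 2.89e-06), and the TKO response differed from that of J1 by -0.09 ± 0.19 (adjusted p = 0.789). Since the J1 fall is a lower bound, this value does not show that the TKO and J1 responses were alike. In 2i the gene was at least 5.78-fold higher in 3B3l than in J1 (adjusted p = 1.45e-07) and in TKO it exceeded J1 by at least 3.03-fold (adjusted p = 3.50e-06). In serum TKO was 3.22-fold above J1 (adjusted p = 1.24e-06), and 3B3l stood at 1.07-fold of J1 (adjusted p = 0.593), with overlapping arrays. 3B3l was 3.01-fold below TKO in serum (adjusted p = 1.86e-05). In 2i it read 0.93 ± 0.15 above TKO, below the 2-fold limit (adjusted p = 5.51e-04), and this passed the limit with slide as a block, at 1.25, and without 3B3l-2i replicate 2, at 1.01.

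Rhox13, a gene of male and female germ cells, followed the order of the lines in both media. In J1-serum it read 0.26, 0.54, 0.50 and 0.58 and in J1-2i -0.51, -0.61 and -0.52. In TKO-serum it read 2.11 and 2.30 and in TKO-2i 1.44, 1.35 and 1.38. In 3B3l-serum it read 1.30 and 1.33 and in 3B3l-2i 0.80 and 0.69. No 2 groups overlapped, TKO was above 3B3l and 3B3l above J1 in each medium, and serum was above 2i in each line. TKO exceeded J1 by 3.33-fold in serum (adjusted p = 8.79e-08) and 3.83-fold in 2i (adjusted p = 5.66e-08). 3B3l exceeded J1 by 2.44-fold in 2i (adjusted p = 3.13e-06) and by 1.80-fold in serum (adjusted p = 2.80e-05), the latter below the limit. Within slide 3 the serum difference was 1.06 on the log2 scale, above the limit. The only J1 array there is J1-serum replicate 1, the lowest J1-serum reading at 0.26.

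The 2i response of Rhox13 was a 2.02-fold fall in J1 (adjusted p = 1.24e-06), a 1.76-fold difference in TKO (adjusted p = 8.36e-05) and a 1.49-fold difference in 3B3l (adjusted p = 0.00336), so that J1 alone passed the limit. The TKO response differed from that of J1 by 0.20 ± 0.14 (adjusted p = 0.355) and the 3B3l response by 0.44 ± 0.15 (adjusted p = 0.0476), the latter below the 2-fold limit. The J1 value was as close to 2-fold as that of Rhox6 and fell short of it with median scaling, normexp and the replicate block, and without J1-2i replicate 2, J1-serum replicate 2 or J1-serum replicate 4, down to 0.89 on the log2 scale.

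Rhox1, a testis gene at the end of the cluster next to Rnf113a1, was well above background in a single group as a whole, J1-2i, and passed the filter through that group alone. Its differences from J1-2i had to be large for it to be tested, so they are given as a description. In J1-2i it read -1.89, -1.92 and -1.87, well above background on all 3 arrays. In J1-serum it read -3.17, -4.94, -4.60 and -3.99, in TKO-serum -4.18 and -4.07, in 3B3l-serum -3.24 and -3.68 and in 3B3l-2i -3.01 and -3.90, none of them well above background. In TKO-2i it read -2.0, -4.61 and -4.84, with replicate 1 alone well above background. Its order among the 5 groups other than J1-2i carries no information, since their arrays overlap and most are at background. The signal in J1-2i was at least 2.00-fold that in J1-serum and at least 1.35-fold that in 3B3l-2i. The mean of TKO-2i was -3.82, or -2.92 with the spots not well above background raised to the lowest signal that was, beside -1.89 in J1-2i.

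**Figure D2:**
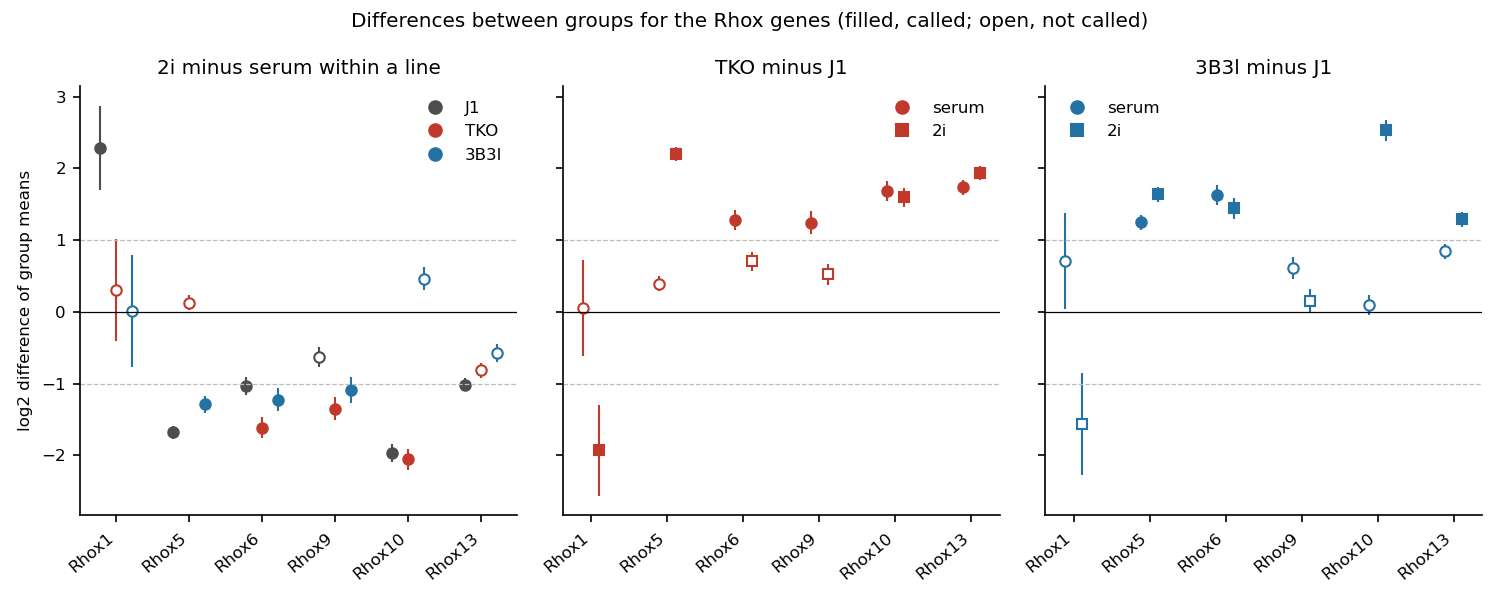
Log2 differences of group means with their standard errors (y axis) for the 6 Rhox genes (x axis), for 2i minus serum within each line (left), TKO minus J1 (middle) and 3B3l minus J1 (right), with filled symbols for called differences and dashed lines at 2-fold. The 2i differences of Rhox6, Rhox9 and Rhox13 lie below 0 in all 3 lines, while the 2i difference of Rhox5 is -1.68 in J1 and 0.13 in TKO.

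Counted together, 4 of the 6 genes were lower in 2i than in serum in J1, against 12.5% of all 13912 tested genes, and 1 was higher, against 10.2%. The latter is Rhox1, which was tested only because it was high in J1-2i, so its count carries no weight here or between lines in 2i. In TKO 3 were lower, against 8.99% of all genes, and 0 higher, against 6.79%. In 3B3l 3 were lower, against 7.91%, and 0 higher, against 5.65%. Rhox6 was among those called in each of the lines, with Rhox5 and Rhox9 as the others in 3B3l and Rhox9 and Rhox10 in TKO. The median log2 difference over the 6 genes was -1.02 for J1, -1.08 for TKO and -0.83 for 3B3l, or without Rhox1 -1.03, -1.35 and -1.08, beside medians over all tested genes of 0.06, 0.08 and 0.01. Within slide 1, which holds 2 arrays of each J1 and TKO group, the J1 difference was -1.70 for Rhox5, -0.98 for Rhox6, -0.79 for Rhox9, -1.97 for Rhox10, -1.06 for Rhox13 and 2.42 for Rhox1.

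In serum, where J1 alone had feeders, TKO signal was higher than that of J1 for 4 of the 6, Rhox6, Rhox9, Rhox10 and Rhox13, against 7.74% of all genes, and 0 were lower, against 8.73%. In 2i 3 were higher in TKO than in J1, Rhox5, Rhox10 and Rhox13, against 3.82%, and 1 was lower, Rhox1, against 3.54%. The median over the 6 was 1.26 in serum and 1.15 in 2i, and without Rhox1 1.28 and 1.60, beside 0.01 and 0.05 over all tested genes. The comparisons in serum and the comparisons of media share their serum arrays and are not independent of each other. In the line with forced Dnmt3b and Dnmt3l, 2 of the 6 were higher than in J1 in serum, Rhox5 and Rhox6, against 9.98%, and 4 were higher in 2i, Rhox5, Rhox6, Rhox10 and Rhox13, against 7.90%. None was called lower, where 9.28% of all genes were in serum and 6.49% in 2i. The median over the 6 was 0.78 in serum and 1.36 in 2i, and without Rhox1 0.85 and 1.44, beside 0.14 and 0.10 over all tested genes.

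Between 3B3l and TKO, which were scanned on different slides, few of these genes were called. In serum 1 was lower in 3B3l, Rhox10, against 5.41% of all genes, and 0 were higher, against 5.28%. In 2i limma called 0 of the 6, although 5 had an unadjusted p under 0.05 and 4 an adjusted p within 0.05 at changes below 2-fold. Across all genes 4.69% were higher and 5.27% lower in that comparison. For 1 gene, Rhox5, the TKO response to 2i exceeded that of J1, against 7.76% of all genes, and for 0 it was below it, against 7.48%. For 1 gene, Rhox10, the 3B3l response exceeded that of J1, against 8.60%, and for 0 it was below it, against 8.57%.

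The 2 genes without a probe, Rhox2a and Rhox4b, can be approached only through their paralogs. Probes for 6 Rhox2 and Rhox4 paralogs passed the filter, 7 probes in all: Rhox2c, Rhox2e, Rhox2h with 2 probes, Rhox4a, Rhox4e and Rhox4g. The files give no probe sequences, so signal from Rhox2a, Rhox4b and the other copies on these probes cannot be told apart from that of the named gene. Over the 16 arrays the 7 probes correlated with one another at r of 0.90 to 0.99 over 21 pairs, a description of probes that may share targets.

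**Figure D3:**
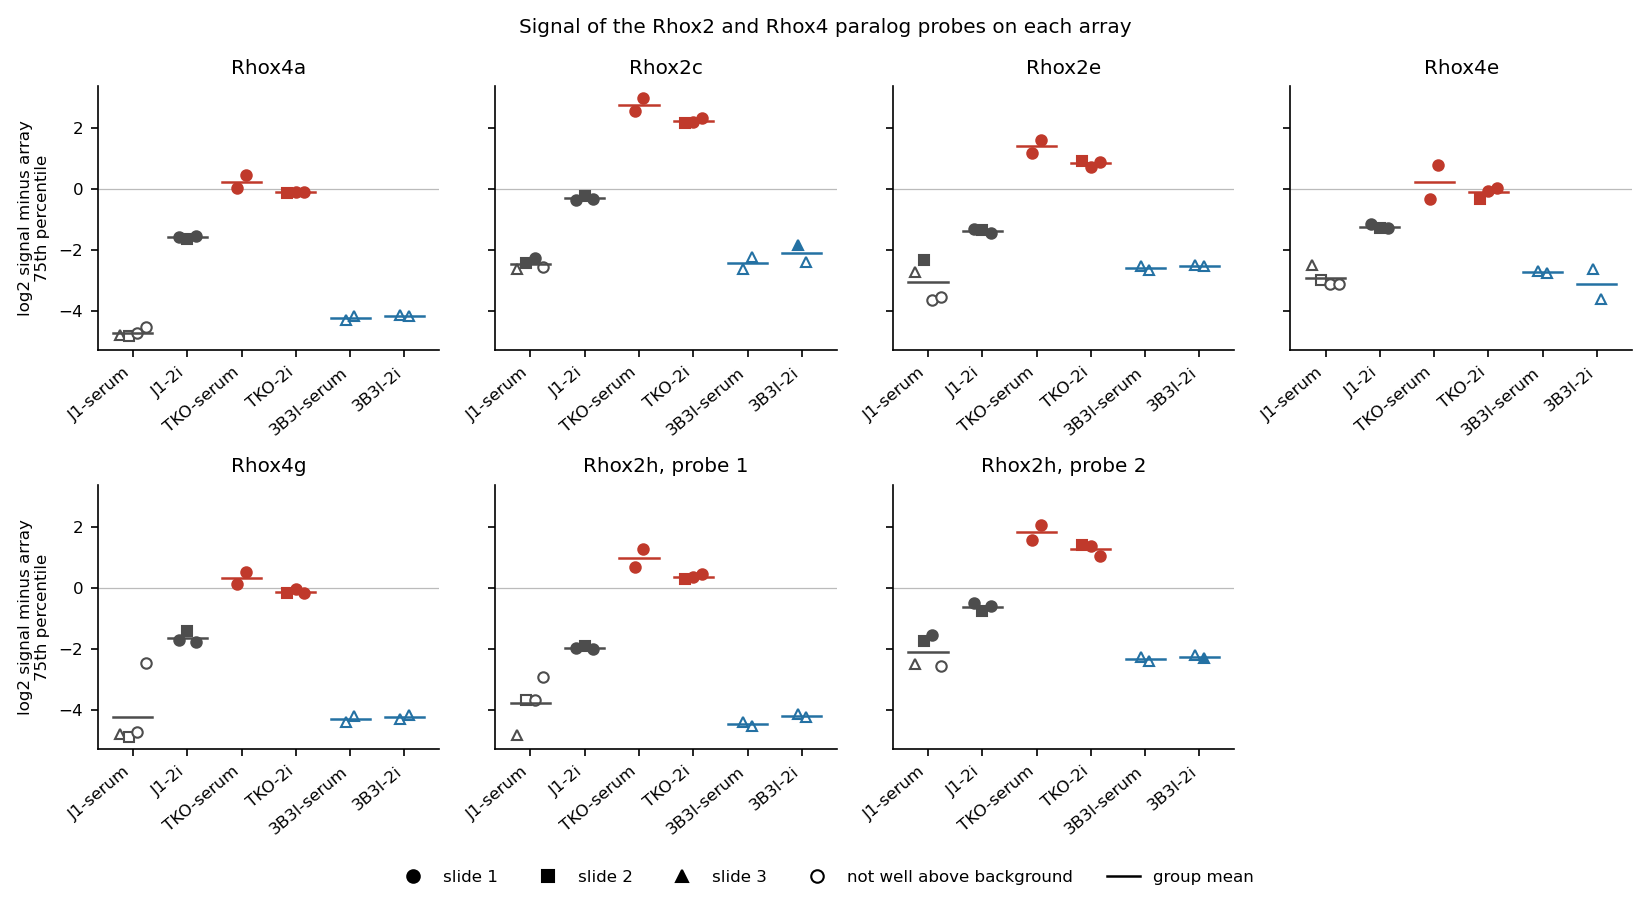
Log2 signal minus the array's 75th percentile (y axis) of the 7 Rhox2 and Rhox4 paralog probes on each array, by group (x axis), with symbols as for the 6 genes with a probe of their own. TKO arrays are highest, J1-2i arrays intermediate, and J1-serum and 3B3l arrays mostly not well above background.

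These probes were read as the 6 genes above were. All passed the filter in J1-2i, TKO-serum and TKO-2i alike, so that each comparison of 2 groups leaves a group outside it that would have admitted the probe, while the difference of the TKO and J1 responses does not. Rhox4a read -4.80, -4.84, -4.74 and -4.53 in J1-serum, -1.58, -1.63 and -1.55 in J1-2i, 0.03 and 0.47 in TKO-serum, -0.12, -0.10 and -0.10 in TKO-2i, -4.30 and -4.16 in 3B3l-serum, and -4.15 and -4.16 in 3B3l-2i. It was well above background on every J1-2i and TKO array and on no J1-serum or 3B3l array. Rhox2c read -2.62, -2.43, -2.28 and -2.54 in J1-serum, -0.35, -0.24 and -0.34 in J1-2i, 2.56 and 2.99 in TKO-serum, 2.18, 2.21 and 2.34 in TKO-2i, -2.62 and -2.21 in 3B3l-serum, and -1.84 and -2.38 in 3B3l-2i. Here 2 of 4 J1-serum arrays and 1 of 2 3B3l-2i arrays were well above background. For all 7 probes the J1-2i arrays lay above all J1-serum arrays and below all TKO arrays.

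In J1 all 7 probes were called higher in 2i, against 10.2% of all genes, Rhox4a by at least 2.46-fold (adjusted p = 2.37e-10) and Rhox2c by 4.47-fold (adjusted p = 1.33e-07), although for 1 probe of Rhox2h the bound was 1.91-fold. Here too an adjusted p beside a bound belongs to the signals as measured, which are partly at background, and the bounds were not tested. In TKO limma called 0 of the 6 genes, against 6.79% higher and 8.99% lower over all genes. Of the 6, 2 had an unadjusted p under 0.05, and log2 differences over the 7 probes ran from -0.61 to -0.33. In 3B3l nearly all spots were not well above background in either medium, so that a response could not be read there. In TKO all 7 were higher than in J1, against 7.74% of all genes in serum and 3.82% in 2i, in serum by 37.9-fold for Rhox2c (adjusted p = 2.10e-09) and at least 8.80-fold for Rhox4a (adjusted p = 3.48e-10), and in 2i by 5.86-fold (adjusted p = 4.24e-07) and 2.79-fold (adjusted p = 2.22e-06). In 3B3l all 7 were lower than in TKO in both media, against 5.41% in serum and 5.27% in 2i, in serum by at least 31.6-fold for Rhox2c (adjusted p = 5.75e-09) and 6.37-fold for Rhox4a (adjusted p = 1.01e-09). All 7 were also called lower in 3B3l-2i than in J1-2i, against 6.49%, Rhox2c by 3.48-fold (adjusted p = 1.28e-05), yet for Rhox2e, Rhox4a, Rhox4g and 1 probe of Rhox2h the bound that the background allows is below 2-fold. In serum 3B3l and J1 gave no called difference in these 6 genes, of which 1 had an unadjusted p under 0.05. Over all genes 9.98% were higher and 9.28% lower in that comparison. No 3B3l-serum spot of these probes and few J1-serum spots were well above background, so this does not show that the lines were alike.

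The difference between the TKO and J1 responses to 2i was called for all 7 probes, against 7.48% of all genes. It ran from -3.50 for Rhox4a to -2.03 for Rhox2h and Rhox4e. No group outside this difference admitted the probes, so it is given as a description. With spots not well above background raised to the lowest signal that was, it ran from -2.69 for Rhox2c to -1.55 for 1 probe of Rhox2h, with Rhox4a at -1.66. Of the remaining Rhox genes with a tested probe, Rhox8 was 2.53-fold higher in TKO than in J1 in serum (adjusted p = 0.0287) and 2.57-fold lower in 3B3l than in TKO in 2i (adjusted p = 0.0429), both by 1 of its 2 probes, while Rhox7a and Rhox12 were called in none of the 11 comparisons and had unadjusted p under 0.05 in some. The first call did not hold without J1-serum replicate 1 or 2 or TKO-serum replicate 1, nor with slide as a block. The second was lost in 6 of 16 fits that left out 1 array, with -0.66 on the log2 scale without 3B3l-2i replicate 1, and with slide as a block, at -0.42. A further 5 Rhox genes, Rhox3a, Rhox3e, Rhox3f, Rhox3h and Rhox11, had probes that did not pass the filter.

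**Figure D4:**
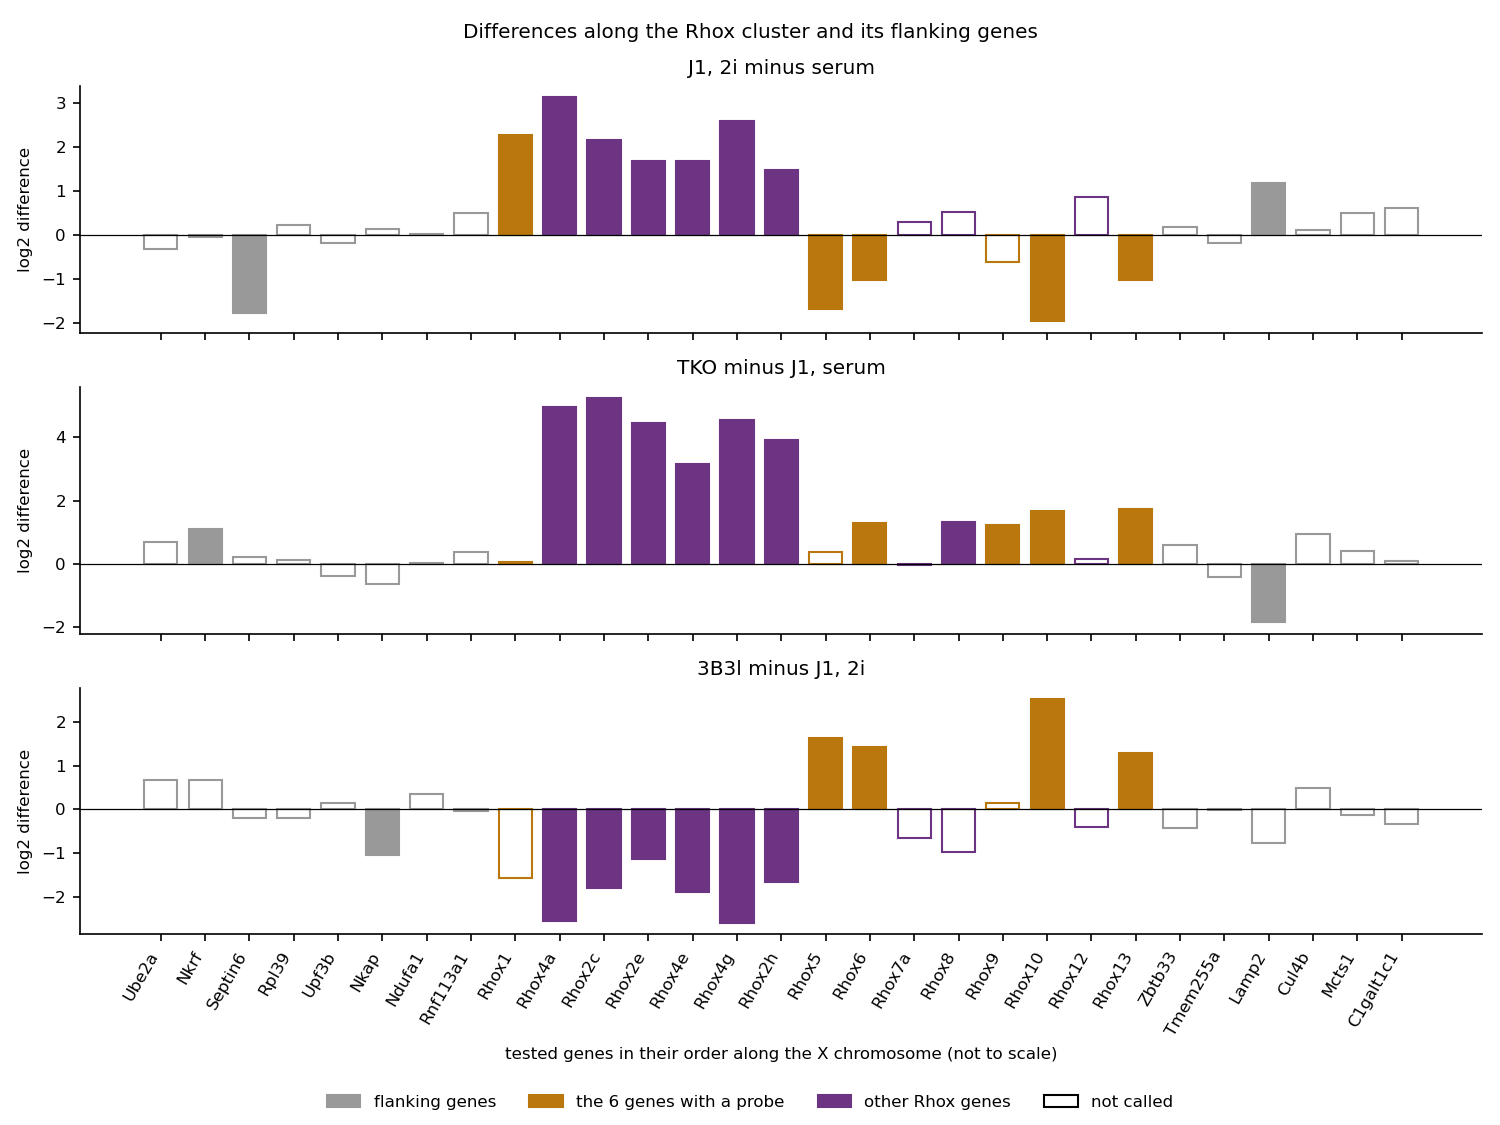
Log2 differences (y axis) of the tested genes in their order along the X chromosome (x axis, not to scale), for 2i minus serum in J1, TKO minus J1 in serum and 3B3l minus J1 in 2i, with filled bars for called differences. In J1 the 2i difference is positive from Rhox1 to Rhox2h and negative for Rhox5, Rhox6, Rhox9, Rhox10 and Rhox13, and of the 14 flanking genes Lamp2 and Septin6 are called.

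In the order of the genes along the chromosome, the 6 tested Rhox2 and Rhox4 genes, whose probes may share targets, were called higher in 2i in J1, and from Rhox5 on the 5 member genes read lower, 4 of them called. The Rhox3 genes that lie among the former did not pass the filter, and Rhox1, beside them, was tested through J1-2i alone. Rhox7a at 0.30, Rhox8 at 0.53 and Rhox12 at 0.86, which lie between those 5, were not called. The flanking genes run from Ube2a to Rnf113a1 on the side of Rhox1 and from Zbtb33 to C1galt1c1 on the side of Rhox13. Of the 14 tested of 17, 1 was higher in 2i in J1, Lamp2 at 1.19, and 1 lower, Septin6 at -1.77, against 10.2% and 12.5% of all genes. Between TKO and J1 in serum 1 was higher, Nkrf at 1.12, and 1 lower, Lamp2 at -1.85, against 7.74% and 8.73%. In 2i limma called 0 of the 14 between TKO and J1, with 6 at an unadjusted p under 0.05, against 3.82% higher and 3.54% lower over all genes. The median over the 14 was 0.16 for TKO against J1 in serum, where that over the 6 Rhox genes was 1.26.

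Other germline genes that DNA methylation is known to silence, 21 tested of 22 listed, were read in the same comparisons. In serum 10 were higher in TKO and 2 lower, with a median of 0.79 beside 0.01 over all tested genes, against 7.74% and 8.73% of all genes, among them Wfdc15a at 3.10, Fkbp6 at 2.86 and Sycp3 at -2.35. In 2i 5 were higher in TKO and 2 lower, against 3.82% and 3.54%, with a median of 0.15 beside 0.05. In 3B3l against J1 1 was higher and 3 lower in serum, against 9.98% and 9.28%, and 8 higher and 2 lower in 2i, against 7.90% and 6.49%, with medians of -0.11 and 0.60. Asz1, a germ-plasm protein needed for piRNA, was well above background on all TKO arrays and on no J1 or 3B3l array, the same pattern as Rhox4a outside J1-2i. In J1 the list split in 2i, with 7 higher and 9 lower, against 10.2% and 12.5%. Of 15 genes of the silencing machinery or of demethylation, all tested, 3 were higher in J1 in 2i, against 10.2% of all genes. In the same comparison 4 were lower, against 12.5%. The largest differences were Dnmt3l at -3.89, Dnmt3b at -2.33 and the demethylase gene Tet2 at 1.52. In TKO against J1 in serum 1 was higher, the demethylase gene Tet1 at 1.14, and 3 were lower, the deleted Dnmt1, Dnmt3a and Dnmt3b, against 7.74% and 8.73%.

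Likeness over the 16 arrays was read as Pearson's r against 13614 other genes, for which the arrays of a group share their line and medium. The closest to Rhox5 was Tmem109 at 0.96, to Rhox6 Akr1c18 at 0.96 and Myc at 0.96, to Rhox9 Pax6 at 0.95, to Rhox10 Slc25a31 at 0.97 and Sox3 at 0.96, and to Rhox13 Platr21 at 0.98. Rhox1, whose values are mostly at background, was left out. Slc25a31 is itself one of the listed germline genes. The Rhox2c and Rhox2h probes were closest to Magea1, an X-linked cancer-testis gene, at 0.99 and 0.98. Among the members, Rhox5, Rhox6, Rhox9, Rhox10 and Rhox13 correlated with one another at 0.65 to 0.84.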

How the data were processed

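Total RNA of 16 mESC samples was hybridized, Cy3-labelled, to one-colour Agilent 8x60K mouse arrays by the authors. The deposited scanner files of Agilent Feature Extraction 11.5.1.1 hold signal intensity per spot, processed by the authors' software (background subtraction and detrending) and not scaled between arrays. A log2 value table was deposited as well, with 16 columns over 30170 probes and no stated scale. It served only as an alternative, and its columns were set against the scanner values: 13 of 16 resembled most another array of their own group and 0 one of another group.

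Processed signals were put on the log2 scale and each array's 75th percentile was subtracted. Outlier and control spots were left out, and repeat spots averaged. Testing required that all arrays of 1 group or more be well above background for the probe, which kept 27113 of 55681 probes and 13912 named genes. limma 3.58.1 (R 4.3.3) was fitted to all 6 groups, with Benjamini-Hochberg adjustment over all tested probes. Calls needed an adjusted p no higher than 0.05 and a 2-fold change. For genes with several probes the one of highest mean signal was read, and another probe is given where its call differs. Lower bounds on folds use the lowest signal well above background of each array and were not tested. The p-values beside them are limma's for the signals as measured.

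The text names the 8 member genes, the other Rhox genes with a tested probe, genes with the largest differences in lists of flanking, germline and silencing genes, and the genes most alike in pattern. Members and lists were chosen with earlier results of these data known. Groups come from the sample labels. Symbols, gene order and promoters come from RefSeq (GRCm38.p6). Alternatives were median or quantile scaling, normexp on the median foreground and background signals, the authors' log2 table, other filters, no fold limit, slide as a block, single slides, the replicate number as a block, and each array left out. The number of arrays limits the precision. The script was tested on simulated data.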

Additional observations from a re-analysis of the deposited data

Results flagged for a closer look

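Responses to 2i that differed from that of J1 by limma's test of the difference itself were found for 2 of the 6 Rhox genes. Over all tested genes, 7.76% had a larger and 7.48% a smaller value in TKO than in J1, and 8.60% and 8.57% in 3B3l. For Rhox5 the TKO response exceeded the J1 response by 1.81 on the log2 scale (adjusted p = 1.80e-06), and within slide 1 by 1.83. For Rhox10 the 3B3l response exceeded the J1 response by 2.43 (adjusted p = 2.89e-06), where the J1-2i arrays are not well above background and the 3B3l arrays lie on a slide of their own but for J1-serum replicate 1.

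For all 7 Rhox2 and Rhox4 probes the fitted difference from the J1 response was negative in both lines, but in 3B3l nearly all of their spots were not well above background in either medium, so that no 3B3l response could be read and its values are fitted ones. The TKO minus J1 difference was -3.50 for Rhox4a, -3.05 for Rhox4g and -2.69 for Rhox2c. It was -2.42 and -2.03 for the probes of Rhox2h, -2.25 for Rhox2e and -2.03 for Rhox4e. These probes passed the filter in J1-2i, TKO-serum and TKO-2i, which all enter this difference, so it is given as a description. The 3B3l minus J1 difference was -3.06 for Rhox4a, -2.52 for Rhox4g, -2.10 for Rhox4e and -1.85 for Rhox2c. It was -1.63 for Rhox2e and -1.54 and -1.42 for the probes of Rhox2h. With nearly all 3B3l spots at background in both media, a test cannot tell a different 3B3l response from an unread one. The 3B3l minus J1 values are therefore also given as a description. These values rest on J1-serum and 3B3l signals that are mostly at background. With such spots raised to the lowest signal well above background, the TKO minus J1 difference of Rhox4a was -1.66 and the 3B3l minus J1 difference -1.20, and the latter was -0.83, below 2-fold, for 1 probe of Rhox2h. The probes may share targets, so these are not independent results.

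Of 17 groups of 4 arrays examined for an array apart from the rest, 2 had one, where chance gives about 1 in 20. In J1-serum, Rhox6 read -0.99 on replicate 4, and Rhox4g read -2.48 on replicate 4, which was not well above background.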

How the results depend on the processing

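No difference called under the settings above turned to the opposite direction under any alternative that was run. Of 1659 single differences of the 6 Rhox genes under alternatives, 1600 kept their side of the threshold, 31 lost a call and 28 gained one. For the 2i response in J1 the number of Rhox genes called went from 5 to 3 with median scaling, with normexp, with the authors' table and with a filter on all 16 arrays. The last leaves 4 of the genes tested, and with it TKO against J1 in 2i went from 4 to 2, 3B3l against TKO in serum from 1 to 0, and the 3B3l minus J1 difference of responses from 1 to 0. The authors' table holds 5 of the 6 probes and not that of Rhox5, and with it the TKO minus J1 difference of responses went from 1 to 0. 3B3l against J1 in serum went from 2 to 1 with that table and with quantile normalization, and to 4 with no fold limit. 3B3l against TKO in serum went to 2 with normexp and to 4 with no fold limit. 3B3l against TKO in 2i went from 0 to 1 with slide as a block and to 4 with no fold limit. The TKO minus J1 difference of responses went to 2 within slide 1 and to 3 with no fold limit, and the 3B3l minus J1 difference to 2 with no fold limit. The cause was not tested where the number of genes tested stayed the same.

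With each array left out in turn, counts ran from 4 to 5 for 2i in J1, 3 to 3 in TKO, 2 to 3 in 3B3l, 4 to 4 for TKO against J1 in serum, 3 to 4 in 2i, 2 to 2 for 3B3l against J1 in serum, 4 to 5 in 2i, 1 to 1 for 3B3l against TKO in serum, 0 to 1 in 2i, and 1 to 2 for each difference of responses. The second gene there was Rhox1, without TKO-2i replicate 1. Rhox1 was tested through J1-2i alone, and with spots at background raised to the lowest signal well above it the differences over all arrays were -0.36 for TKO and -0.90 for 3B3l.

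The labels number the arrays within groups, but arrays of the same number did not deviate together (mean correlation -0.01), so they share only a number. With the replicate number as a block, the counts were 4 for 2i in J1, where Rhox13 stood at -0.98, and 5 for 3B3l against J1 in 2i, the added one being Rhox1, to which the same limit applies. The other counts were as without the block. Signals near background limit Rhox1, Rhox10 in J1-2i and the Rhox2 and Rhox4 probes.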
